A study of Mus musculus with 31 samples.

Results

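Cd247, Clnk, Cytip, Gpr183 and Ptprcap are 5 of the 41255 gene symbols listed for Ba/F3 cells that express human RPL10 WT or R98S. They were selected on the measured values themselves, as genes that act in lymphocyte signalling or adhesion and that lay near the floor in WT or were raised in R98S. Their difference between R98S and WT is therefore given as a description with no test. Tests are confined to the spread between clones and replicate numbers, and to genes other than these 5.

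Ba/F3 is a mouse lymphoid line that grows on interleukin-3. All 6 clones, controls included, carried an shRNA against mouse Rpl10 and a retroviral human RPL10, either WT or R98S. The R98S substitution replaces an arginine by serine in this protein of the large ribosomal subunit that recurs in T-cell acute lymphoblastic leukemia. The cultures were R98S clones 11, 13 and 35 and WT clones 28, 29 and 36, each grown from a single cell, with replicate numbers 1 to 3. Total mRNA was sequenced from 9 R98S and 8 WT cultures, and polysomal RNA, the mRNA of gradient fractions with at least a pair of ribosomes per transcript, from 8 R98S and 6 WT cultures. Number 1 of WT clone 36 was excluded from total mRNA by the study because it grouped with R98S, and is not analysed here. Libraries held 8831180 to 22059792 reads on genes.

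The 5 products stand at separate points of lymphocyte signalling. CD247 is the zeta chain of the T-cell receptor and of several natural killer receptors, and it carries the tyrosine motifs (ITAMs) on which Syk-family kinases dock after Src-family kinases have phosphorylated them. PTPRCAP binds CD45 (Ptprc), the receptor phosphatase that sets the activity of the Src-family kinases. CLNK is an SH2 adaptor of the SLP-76 (Lcp2) and BLNK family that was described in cytokine-stimulated hematopoietic cells and acts downstream of ITAM receptors. CYTIP binds cytohesin-1 (Cyth1), an exchange factor for ARF GTPases that activates leukocyte integrins, and dampens adhesion. GPR183 (EBI2) is a receptor for oxysterols made by Ch25h and Cyp7b1 and removed by Hsd3b7, and it guides lymphocytes within lymphoid tissue.

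The gene regions are given on mm10 (GRCm38) from the GENCODE annotation. Cd247 lies at chr1:165788681-165877277 on the plus strand, Clnk at chr5:38706462-38876812 on the minus strand and Cytip at chr2:58129137-58195532 on the minus strand. Gpr183 lies at chr14:121952551-121965195 on the minus strand, within the span of Ubac2 on the plus strand, and shares no exonic base with it. Ptprcap lies at chr19:4153604-4156751 on the plus strand. The exons of Clnk and Gpr183 had no 50-base window in common with transcripts of other genes, and Cytip had 0.236% of its windows in common. For Cd247 this share was 55.9% and for Ptprcap 93.9%. The shared part of Ptprcap came from Rps6kb2 on the opposite strand, which covers 76.0% of its exonic bases, and from Coro1b on the same strand, which covers 26.8%. That of Cd247 came from Pou2f1 on the opposite strand, which covers 56.4% of its exonic bases, and from Gm16565 on the same strand, which covers 3.87% and averaged 5.86 in R98S and 1.57 in WT total mRNA. The library kit keeps the strand, but the use of strand in counting was not stated.

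As these transcripts were low or unread in WT, the bases upstream of their start sites are shown for orientation. RefSeq promoter windows (GRCm38.p6, 250 bases upstream) were found for 4 of the 5 genes, namely Cd247, Clnk, Cytip and Gpr183. Windows are printed 5′ to 3′ on the strand of the gene and trimmed to the part outside annotated exons of the same gene, which leaves nothing of the Cytip window. They are Cd247 (chr1:165788431-165788680, plus strand), Clnk (chr5:38876813-38876943, minus strand) and Gpr183 (chr14:121965196-121965443, minus strand). Capitals mark matches to the searched letters, read on either strand.
Cd247: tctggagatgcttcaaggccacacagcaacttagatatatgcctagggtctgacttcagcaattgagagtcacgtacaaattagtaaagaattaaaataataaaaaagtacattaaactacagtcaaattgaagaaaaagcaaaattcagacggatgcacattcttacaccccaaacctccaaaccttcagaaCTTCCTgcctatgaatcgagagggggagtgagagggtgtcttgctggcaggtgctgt
Clnk: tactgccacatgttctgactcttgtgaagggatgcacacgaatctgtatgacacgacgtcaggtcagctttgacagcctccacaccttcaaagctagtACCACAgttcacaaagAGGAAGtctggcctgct
Gpr183: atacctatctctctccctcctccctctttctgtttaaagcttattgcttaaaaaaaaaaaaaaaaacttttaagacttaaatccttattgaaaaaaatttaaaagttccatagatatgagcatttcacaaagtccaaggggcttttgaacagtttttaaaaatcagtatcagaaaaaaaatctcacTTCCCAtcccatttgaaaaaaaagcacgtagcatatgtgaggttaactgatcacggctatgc

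The matches marked are AGGAAG (ETS) in Cd247 and Clnk, TGTGGT (RUNX) in Clnk and TGGGAA (Ikaros family) in Gpr183. The whole Clnk window also held TTCNNNGAA (STAT) from base -86 to -78 before the RefSeq start, and the Cytip window held TGTGGT from -64 to -59. None of the 4 windows held CAGCTG, the letters used for the E-box, or TGANTCA, those used for AP-1, nor did any hold a GATA match, searched with A or T before the letters GATAA. Over all 27025 promoter windows of the same length, AGGAAG occurred in 29.2%, TGGGAA in 21.5%, TGTGGT in 14.2%, CAGCTG in 12.8%, the GATA letters with A in 10.3% and with T in 8.16%, TTCNNNGAA in 7.18% and TGANTCA in 6.87%. Such matches are letters in a window and do not mark a bound site.

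All values below are normalized counts, that is reads per gene divided by the size factor of the library within its table. Fold changes are on the log2(value + 1) scale unless given as a ratio of reads. All 5 genes passed the low-value filter (mean of 10 or more) in either table, but in total mRNA only Cd247 and Gpr183 would have passed on their WT libraries, and in polysomal RNA none would. Genes that passed through R98S alone had to be higher there. For all 5 genes and in both fractions, every R98S library lay above every WT library, an arrangement shared by 2.07% of the 11133 genes tested in total mRNA and 3.04% of the 10707 genes tested in polysomal RNA. Over all genes 14.5% were called higher and 15.8% lower in R98S in total mRNA (limma, adjusted p under 0.1), and 7.66% higher and 5.87% lower in polysomal RNA, where the count of called genes rose from 1449 to 3307 with the replicate block. Nothing is read from these shares for the 5 genes, because this contrast chose them. In bulk RNA a larger share of expressing cells and more RNA per cell cannot be told apart.

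**Figure D1:**
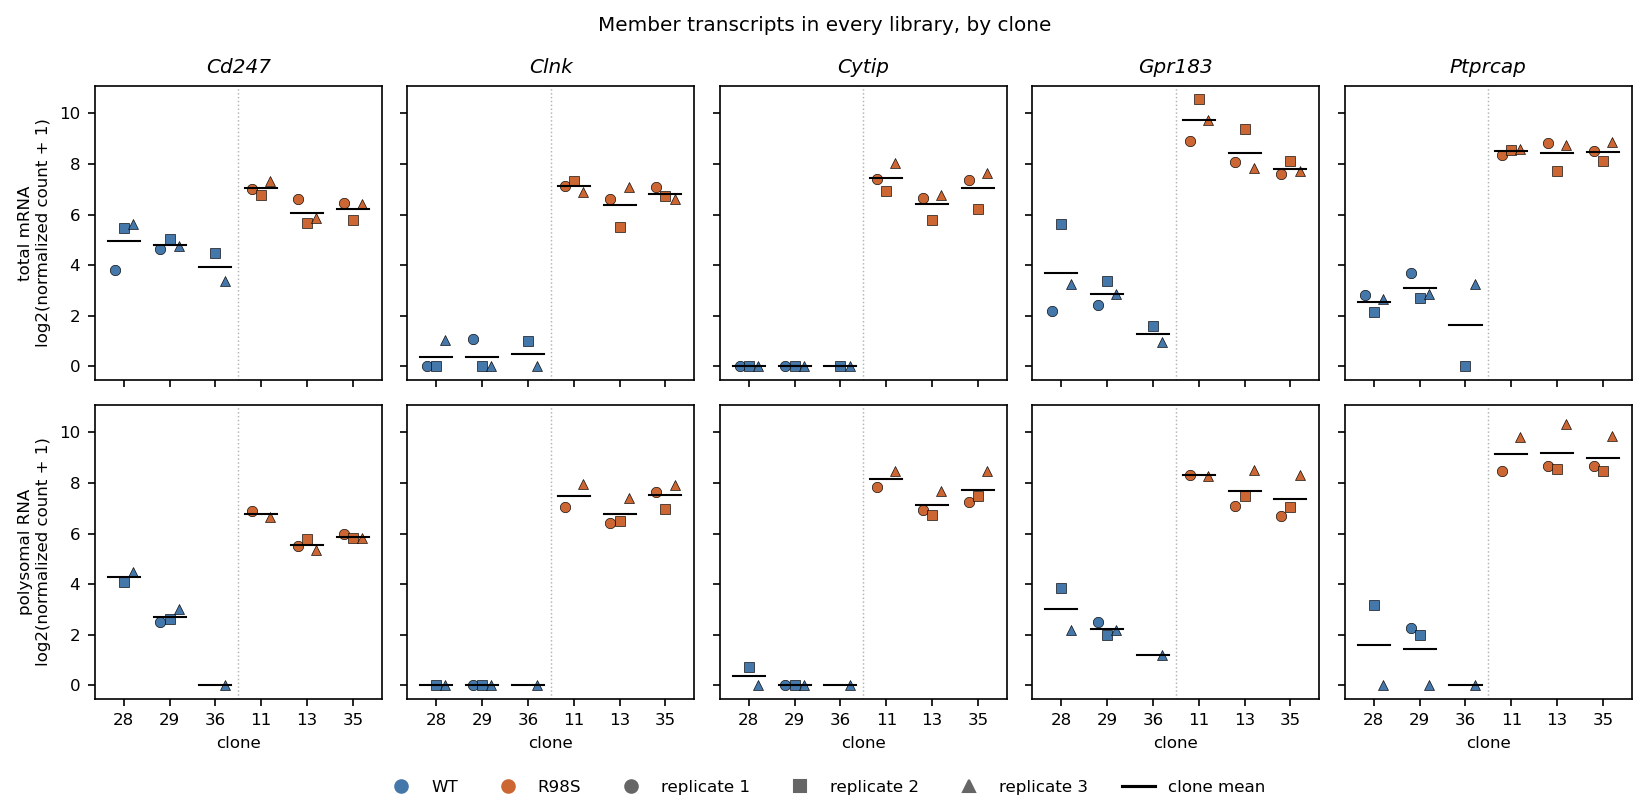
Normalized counts of the 5 genes in each library on a log2(value + 1) axis, by clone, with total mRNA above and polysomal RNA below. Colours give the genotype, symbols the replicate number and bars the mean of a clone on that axis. Cytip was unread in all 8 WT total mRNA libraries, while Cd247 had a WT mean of 27.1 and came closest to overlap between the genotypes.

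Cd247 was the only one of the 5 genes with clear reads in most WT libraries. In R98S total mRNA it had 129, 108 and 158 in clone 11, 96.2, 50.4 and 56.8 in clone 13, and 87.0, 54.5 and 83.4 in clone 35, for replicate numbers 1, 2 and 3. In WT it had 13.1, 42.9 and 49.0 in clone 28, 24.1, 31.5 and 25.7 in clone 29, and 21.1 and 9.43 in clone 36. The genotypes did not overlap, but the lowest R98S library (50.4) and the highest WT library (49.0) almost met. On average Cd247 had 91.6 ± 36.3 (SD, n = 9) and 27.1 ± 13.6 (SD, n = 8), and the log2 fold change was 1.79 (SE 0.31). In polysomal RNA the R98S libraries ranged from 39.5 to 118 with a median of 55.4, and the WT libraries from 0 to 21.1 with a median of 6.16, for a log2 fold change of 3.20 (SE 0.55). Over the pooled libraries of a genotype, Cd247 took 540 reads in R98S and 61 in WT polysomal RNA, which is 7.46-fold more after scaling to library totals (95% exact counting interval 5.72 to 9.89). These intervals cover counting error only, and cultures of a clone are not independent lines.

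Ptprcap, the CD45-associated gene, was read at a few counts in WT. In R98S total mRNA it had 330, 370 and 386 in clone 11, 457, 212 and 434 in clone 13, and 362, 275 and 468 in clone 35. The 8 WT libraries ranged from 0 to 12.1 with a median of 5.84 and 46 reads in all. The log2 fold change was 5.96 (SE 0.36, and 5.13 to 6.30 over the alternatives run), and scaled reads were 63.0-fold higher in R98S (counting interval 47.1 to 86.2). In polysomal RNA R98S ranged from 355 to 1301 with a median of 402, and WT from 0 to 7.99, a log2 fold change of 7.87 (SE 0.53) that fell to 6.09 without replicate 3. The overlapping genes did not follow Ptprcap. Rps6kb2 had 725 ± 120 in R98S and 659 ± 118 in WT total mRNA (log2 fold change 0.14, SE 0.12, limma adjusted p 0.427), and Coro1b had 5747 ± 1036 and 4886 ± 566 (0.22, SE 0.11, adjusted p 0.163).

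Clnk, the adaptor, was close to unread in WT. R98S total mRNA had 138, 161 and 119 in clone 11, 96.2, 44.2 and 135 in clone 13, and 133, 105 and 97.2 in clone 35. Among WT libraries a single read each was found in clone 28 number 3, clone 29 number 1 and clone 36 number 2, and the other 5 held none. With 1105 reads in R98S against 3 in WT, the ratio after scaling to library totals was 296 with a counting interval of 101 to 1439. In polysomal RNA R98S ranged from 84.8 to 248 with a median of 149, and none of the 6 WT libraries held a read. Against a floor of 3 reads over the WT group, Clnk was at least 339.8-fold higher in R98S polysomal RNA.

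Cytip, the cytohesin-binding adaptor, had no read in any of the 8 WT total mRNA libraries, together 122849073 reads. R98S had 168, 120 and 260 in clone 11, 99.2, 54.8 and 110 in clone 13, and 162, 73.4 and 198 in clone 35. Its 1299 R98S reads were at least 348-fold more, after the same scaling, than the floor of 3 reads over the WT group. In polysomal RNA R98S ranged from 106 to 355 with a median of 189.8, while a single read was found in WT, in clone 28 number 2 (0.666). The scaled ratio there was 1384 with a counting interval of 248 to 54713, so its size is set by 1 read. Fitted fold changes of Clnk and Cytip depend on the constant added before the log and are not given.

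Gpr183, the oxysterol receptor, had the widest spread of the 5 in total mRNA. In R98S total mRNA it had 477, 1506 and 845 in clone 11, 267, 676 and 229 in clone 13, and 194, 278 and 210 in clone 35. Clone 11 number 2 stood far above the other R98S libraries. WT had 3.49, 48.0 and 8.52 in clone 28, 4.39, 9.26 and 6.18 in clone 29, and 2.01 and 0.943 in clone 36, so that clone 28 number 2 held 28 of the 63 WT reads. The log2 fold change was 5.88 (SE 0.53), and the means of 520.1 ± 434.9 (SD, n = 9) and 10.3 ± 15.5 (SD, n = 8) show a wide spread within each genotype, with the WT SD above the WT mean. In polysomal RNA R98S ranged from 104 to 366 with a median of 245, and WT from 1.32 to 13.3 with a median of 3.56, a log2 fold change of 5.41 (SE 0.40) that was 4.56 without replicate 3. WT clone 28 number 2 was the highest WT library in both fractions. Ubac2, which spans Gpr183 on the other strand, had 662 ± 133 and 607 ± 59.5 in total mRNA (log2 fold change 0.11, SE 0.11, limma adjusted p 0.538).

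To compare levels between the genes, values were divided by exonic length. This length includes bases shared with a gene on the opposite strand, 76.0% for Ptprcap and 56.4% for Cd247. As the use of strand in counting was not stated, the levels, order and percentiles of Ptprcap and Cd247 are uncertain. In R98S total mRNA the order per kilobase was Ptprcap (227 ± 52.4), Gpr183 (180.2 ± 150.6), Clnk (66.5 ± 19.7), Cytip (20.5 ± 9.64) and Cd247 (17.2 ± 6.82; SD, n = 9). Ptprcap and Gpr183 overlapped in range, from 132 to 290.2 and from 67.3 to 522, as did Cytip (8.13 to 38.6) and Cd247 (9.46 to 29.7), and neither pair differed beyond its spread. Among tested genes with a known length, these means ranked at percentile 66.8 for Ptprcap, 59.6 for Gpr183, 30.7 for Clnk, 13.4 for Cytip and 11.8 for Cd247. In WT total mRNA Cd247 was highest (5.09 ± 2.56; SD, n = 8), Ptprcap had 3.66 ± 2.18, Gpr183 had 3.58 ± 5.37, Clnk had 0.23 ± 0.32 and Cytip was at 0. The order thus differed between the genotypes, with Cd247 at the bottom of one and at the top of the other, although the WT ranges of Cd247, Ptprcap and Gpr183 overlapped.

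Whether the 3 R98S clones carried the transcripts at the same level was tested with a model of clone and replicate number over the 9 R98S total mRNA libraries. Across all genes 816 of 11104 (7.35%) differed between clones at an adjusted p under 0.1 (limma F-test). Of the 5 genes 3 did, namely Gpr183 (adjusted p 0.0126), Cytip (0.0538) and Cd247 (0.0870), while Clnk (0.377) and Ptprcap (0.980) did not pass. Gpr183 averaged 942.6 ± 521.1 in clone 11, 390.4 ± 247.8 in clone 13 and 227.4 ± 44.2 in clone 35 (SD, n = 3 each). Clone 11 was also highest for Cd247, with 132 ± 25.2 against 67.8 ± 24.8 in clone 13 and 75.0 ± 17.8 in clone 35, and for Cytip, with 183 ± 71.3 against 87.9 ± 29.1 and 144 ± 64.1. Ptprcap averaged 362 ± 28.7, 368 ± 135 and 368 ± 96.5 in clones 11, 13 and 35. When any 1 library was left out, Gpr183 was called in 9 of 9 fits, Cytip in 4 of 9 and Cd247 in 2 of 9. Cytip lost its call without clone 11 number 2 or 3, clone 13 number 1, or clone 35 number 1 or 3 (adjusted p 0.119 to 0.176), and Cd247 kept its call only without clone 13 number 2 or 3 (0.111 to 0.285 otherwise). Without the replicate block the adjusted p rose to 0.162 for Gpr183, 0.429 for Cytip and 0.257 for Cd247.

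In polysomal RNA 242 of 10721 genes (2.26%) differed between R98S clones, and none of the 5 genes was among them (limma adjusted p from 0.127 for Cd247 to 0.627 for Ptprcap). At an unadjusted p Cd247 (0.00476), Cytip (0.00669) and Clnk (0.0225) were under 0.05, as were 1774 of all 10721 genes (16.5%). Cd247 averaged 109 in clone 11, 46.4 in clone 13 and 57.9 in clone 35, and Cytip 289, 143 and 228, so that clone 11 was again highest for both. Between WT clones only 6 of 11024 genes (0.0544%) differed in total mRNA, and Cd247 (adjusted p 0.973) and Gpr183 (0.738), the members with a WT mean of at least 10, were not among them. Without WT clone 36 number 2 that background was 601 genes. WT clone 36 was the lowest clone for Cd247 and Gpr183 in both fractions, with means of 15.3 and 1.48 in total mRNA.

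Replicate numbers mark a source of variation that same-numbered libraries share. Within R98S total mRNA 1066 of 11104 genes (9.6%) differed between numbers (limma F-test), among them Cytip (adjusted p 0.0414) and Gpr183 (0.0608). The pair moved apart, for Cytip was lowest in number 2 in every clone, with 120, 54.8 and 73.4, whereas Gpr183 was highest in number 2 in every clone, with 1506, 676 and 278. Ptprcap (0.194), Cd247 (0.226) and Clnk (0.622) did not pass. Leaving out any 1 of the 3 libraries with number 1 took both calls away (adjusted p 0.128 to 0.154 for Cytip and 0.143 to 0.177 for Gpr183), and for Gpr183 so did leaving out number 2 of clone 11 (0.121) or clone 13 (0.173). Ptprcap passed without clone 11 number 2 (0.0610).

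In polysomal RNA the share of genes that differed between numbers was 57.8% (6198 of 10721), so that the 4 of 5 genes called there are close to the background. They were Ptprcap (limma adjusted p 6.4e-04), Cytip (0.00746), Clnk (0.0176) and Gpr183 (0.0385), whereas Cd247 did not pass (0.712). Ptprcap had 912, 1301 and 923 in number 3 of clones 11, 13 and 35, against 357, 401 and 404 in number 1 and 373 and 355 in number 2 of clones 13 and 35. The share of all genes whose numbers separate in this way was not counted. Cytip averaged 304 in number 3, 166 in number 1 and 142 in number 2. Gpr183 averaged 333 in number 3, 186 in number 1 and 155 in number 2, and its call was lost without number 3 of clone 13 (adjusted p 0.153) or of clone 35 (0.232). Cd247 averaged 65.0, 75.1 and 55.1 in numbers 3, 1 and 2.

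The polysomal to total ratio asks how much of a transcript was on polysomes, relative to the average gene, since each table was scaled on its own. It was taken as measurable where both libraries of a culture had at least 10, which held for all 8 R98S cultures and all 5 genes. In WT it held for Cd247 in clone 28 numbers 2 and 3 (ratio 0.373 and 0.431) and for Gpr183 in clone 28 number 2 (0.277), and for Clnk, Cytip and Ptprcap in no culture. The ratio can therefore not be compared between genotypes for Clnk, Cytip and Ptprcap, and for Cd247 and Gpr183 the WT values come from 1 clone. Over all genes, 5 of 10627 (0.047%) had a ratio that differed between R98S and WT (limma adjusted p under 0.1), and 687 had an unadjusted p under 0.05. With the replicate block, which pairs the cultures, the count was 46, and it ranged from 0 to 84 when a replicate or clone was left out. In R98S the ratio of Cd247 ranged from 0.468 to 1.08 with a median of 0.709. Both values of WT clone 28 lay below this range. No difference between genotypes is read from this, because Cd247 was chosen on its values and the other WT cultures were not measurable. The ratio of Gpr183 in R98S ranged from 0.264 to 1.60 with a median of 0.518, and the value of WT clone 28 lay within this range.

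The ratios of the other 3 genes in R98S were as follows, and the ranges of all 5 genes overlapped. Clnk ranged from 0.882 to 2.50 with a median of 1.36, Cytip from 0.939 to 2.42 with a median of 1.58 and Ptprcap from 0.877 to 3.00 with a median of 1.52. On the log2 scale, with 1 added to both values, the means were 0.63 ± 0.62 for Ptprcap, 0.62 ± 0.43 for Cytip, 0.53 ± 0.55 for Clnk, -0.41 ± 0.40 for Cd247 and -0.70 ± 0.92 for Gpr183 (SD, n = 8). The median over all genes tested lay between -0.33 and -0.21 in these cultures. Ptprcap, Cytip and Clnk exceeded that median in every one of the 8 cultures, but the share of all genes that did so was not counted. Between replicate numbers 5553 of 10631 genes (52.2%) differed in ratio within R98S, and of the 5 genes Ptprcap (limma adjusted p 0.0208) and Cytip (0.0880) did, which is near the background. Ptprcap had ratios of 1.97 to 3.00 in number 3, 1.29 to 1.76 in number 2 and 0.877 to 1.11 in number 1. How many genes separate by number in this way was not counted. Gpr183 had 1.60 and 1.53 in number 3 of clones 13 and 35 but 0.370 in clone 11, and did not pass (0.107). Clnk (0.223) and Cd247 (0.128) did not pass. Cytip kept its call only in the 2 of 8 fits that left out a culture of clone 11, and Ptprcap in 8 of 8, while Gpr183 gained a call in 3 of 8, Clnk in 2 and Cd247 in 1.

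**Figure D2:**
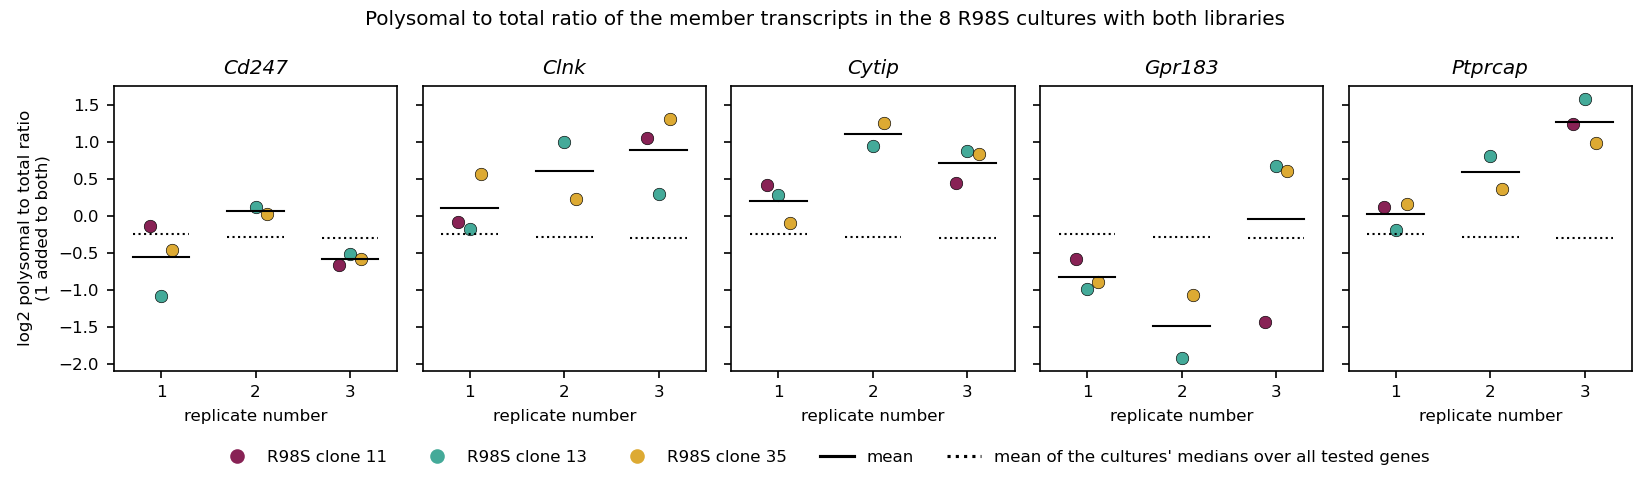
Log2 ratio of polysomal to total normalized counts (1 added to both) in the 8 R98S cultures, by replicate number, with a colour for each clone, a solid bar for the mean and a dotted bar for the level of the median gene. Ptprcap lies near 0 in number 1 and at a mean of 1.27 in number 3, while Gpr183 in number 3 splits between clone 11 and the other two.

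How alike the 5 profiles were was described by Pearson correlation of log2(value + 1) within R98S, where all points share clones, replicate numbers and depth. Over the 9 total mRNA libraries the highest pair was Cytip and Cd247 (r = 0.80), followed by Ptprcap with Cytip (0.64) and with Clnk (0.60). Gpr183 had r = 0.40 with Cd247, 0.01 with Clnk, -0.0016 with Cytip and -0.32 with Ptprcap. Over the 8 polysomal libraries Cytip and Clnk were highest (0.84), and Gpr183 had 0.72 with Ptprcap and 0.70 with Cytip. With so few libraries these values describe the profiles and carry no test.

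Over all 17 total mRNA libraries the genes most like each one mostly repeated the contrast between genotypes. Clnk was closest to Bbs7 (r = 0.992), Lpgat1 (0.991) and Gm10451 (0.989), and Cytip to the same 3 genes (0.993, 0.995 and 0.993). Lpgat1 averaged 376 in R98S and 0.251 in WT, and Gm10451 averaged 141 in R98S and was listed at 0 in WT. Genes close to Ptprcap included Lpgat1 (0.972) and Cemip (0.971). Cd247 was closest to Fbxo27 (0.936), Lgals3 (0.933) and Mapk13 (0.928), and Gpr183 to Cpn1 (0.942), Gm10040 (0.941) and Slc9a3r1 (0.941). Within the 9 R98S libraries alone other genes took these places, namely Eci1 (0.967), Kctd20 (0.961) and Rps2 (0.951) for Cd247, Tmem9b (0.932), Kctd5 (0.928) and Gm18733 (0.916) for Clnk, and Brk1 (0.962), Clta (0.949) and Khdrbs1 (0.940) for Cytip. For Gpr183 they were Mgat4a (0.932), Haus4 (0.926) and Lxn (0.923), and for Ptprcap Exosc3 (0.939), Slc25a47 (0.937) and Wdr5b (0.935). No gene appeared in both sets for the same member, and none of the 5 genes was among the closest of another.

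The direct partners of the products were compared between the genotypes, as their own values were not part of the rule that chose the 5 genes. Libraries of a clone enter these tests as separate samples, so the p-values rest on the spread between libraries. Ptprc (CD45), the partner of PTPRCAP, had 3989 ± 1096 in R98S and 5587 ± 1608 in WT total mRNA and was lower in R98S (log2 fold change -0.48, SE 0.18, limma adjusted p 0.0646). In polysomal RNA Ptprc did not pass (log2 fold change -0.44, SE 0.25, adjusted p 0.342, and 0.170 with the replicate block). Fcer1g, an ITAM chain like CD247, was higher in total mRNA with 2268 ± 565 against 1639 ± 294 (0.44, SE 0.15, adjusted p 0.0435). Lcp2, the relative of CLNK, was lower with 1081 ± 304 against 2046 ± 433 (-0.95, SE 0.18, adjusted p 8.6e-04). Blnk, the other relative, was at 0 in WT and at a mean of 0.0807 in R98S. Cyth1, the partner of CYTIP, had 400.2 ± 30.0 and 364 ± 32.6 and did not pass (0.14, SE 0.08, adjusted p 0.250), whereas Cyth4 was higher with 950.2 ± 108 against 753 ± 124 (0.34, SE 0.10, adjusted p 0.0208). Of the other cytohesins, Cyth3 was higher (0.33, adjusted p 0.0295) and Cyth2 did not pass (-0.04, adjusted p 0.814). The polysomal calls of these partners depended on the replicate block, which pairs the cultures. Without and with it the limma adjusted p was 0.683 and 0.0039 for Fcer1g (0.53 and 0.75 on the log2 scale), 0.155 and 0.072 for Lcp2, 0.354 and 0.012 for Cyth1, 0.239 and 0.048 for Cyth3 and 0.174 and 0.046 for Cyth4. Of the oxysterol enzymes, Ch25h had no read in any total mRNA library, nor did Cyp7b1, while Hsd3b7 had 716 ± 148 and 684 ± 184 (0.09, SE 0.16, adjusted p 0.741).

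Around these partners, 4 lists of pathway genes were counted. Among ITAM chains and the proximal kinases and phosphatases of antigen receptors, 24 of 29 were tested in total mRNA, and 8 were higher and 6 lower in R98S, with a median log2 fold change of 0.13 against 0.0035 over all genes, where 14.5% were higher and 15.8% lower. Cblb, a ubiquitin ligase that restrains receptor signalling, had 1842 ± 384 and 713 ± 234 (1.41, SE 0.18, limma adjusted p 1.9e-05), and Ubash3b, a phosphatase of Syk-family kinases, was lower with 1123 ± 250 against 2163 ± 434 (-0.95, SE 0.14, adjusted p 1.2e-04). In polysomal RNA 7 were higher and 2 lower of 23 tested (7.66% and 5.87% over all genes), and Cblb and Ubash3b kept their direction and call. With the replicate block 10 were higher and 3 lower. The block also raised the count over all genes, as given above, so these 2 counts cannot be set against the shares of the fit without it. Without replicate 1, replicate 2, replicate 3 or clone 29, 9 of the list's genes were called in total mRNA in place of 14. The count over all genes fell as well whenever a replicate or clone was left out, as given in the closing section. Such falls are therefore not read as a trait of a list, here or below.

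Of 35 adaptors and effectors 26 were tested in total mRNA, where 6 were higher and 12 lower (median -0.15), beside 14.5% and 15.8% over all genes. Sh2d2a, an SH2 adaptor of activated T cells, had 313 ± 74.2 in R98S against 15.2 ± 19.99 (5.26, SE 0.57, limma adjusted p 3.2e-06). Lat2, a membrane adaptor of B and mast cells, had 524 ± 347 and 71.8 ± 31.8 (2.66, SE 0.39, adjusted p 8.2e-05). Grap2 (GADS), the adaptor that links SLP-76 to LAT, was lower with 24.3 ± 36.0 against 513 ± 258 (-5.42, SE 0.70, adjusted p 2.6e-05). In polysomal RNA 4 were higher and 3 lower of 26 (7.66% and 5.87% over all genes). With the replicate block 6 were higher and 7 lower, but the block raised the count over all genes as well, and those shares are from the fit without it. Leaving out replicate 3 left 8 called adaptors in total mRNA and leaving out replicate 1 or clone 13 left 11, while the count over all genes fell too.

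**Figure D3:**
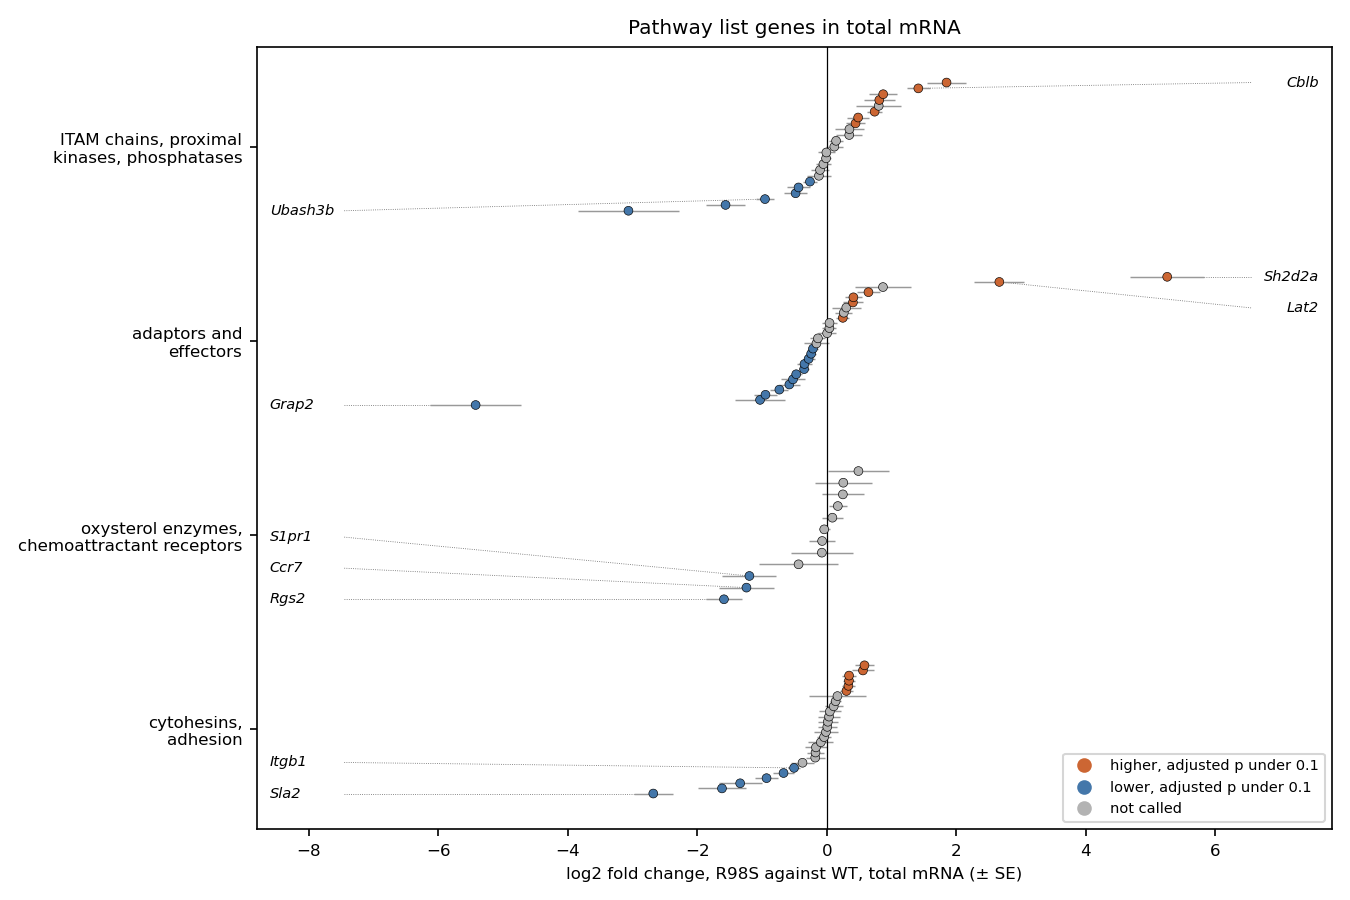
Log2 fold change of R98S against WT in total mRNA (x axis) with its SE for tested genes of 4 lists (y axis), each point a gene and coloured by its call, with a few genes that are not reported here left out. Up to 3 genes of each list with small adjusted p are named, and both directions occur in every list except the oxysterol and chemoattractant list, where 3 genes are lower and none is higher.

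The list around Gpr183 held 22 genes, namely oxysterol enzymes, lymphoid chemoattractant receptors and the signalling genes Rgs1, Rgs2 and Gnai2. Of these 12 were tested in total mRNA, where none was higher and 3 were lower (median -0.06), beside 14.5% and 15.8% over all genes. With the replicate block 1 gene of this list, S1pr2, was called higher (0.21, limma adjusted p 0.059). Rgs2, which restrains signalling by such receptors, had 220.4 ± 85.8 in R98S against 694 ± 287 (-1.59, SE 0.27, limma adjusted p 4.4e-04). The chemokine receptor Ccr7 had 14.2 ± 8.18 and 33.4 ± 19.6 (-1.24, SE 0.43, adjusted p 0.0458), and the sphingosine phosphate receptor S1pr1 had 246 ± 160 and 476 ± 186 (-1.19, SE 0.42, adjusted p 0.0465). Without replicate 3 or clone 28 only 1 gene of this list was called, while the count over all genes fell too. In polysomal RNA Rgs2 and S1pr1 were lower, and 0 of 11 were higher (5.87% lower and 7.66% higher over all genes). Of the 27 genes of the cytohesin and adhesion list, all tested, 6 were higher and 7 lower in total mRNA (median -0.01), beside the same shares over all genes. The list includes the adaptors Sla and Sla2, both among the lower genes. Sla2, an adaptor that lowers antigen receptor levels, had 295 ± 172 and 1821 ± 764 (-2.68, SE 0.30, adjusted p 5.0e-06), and the integrin Itgb1 had 3724 ± 548 and 5257 ± 473 (-0.51, SE 0.09, adjusted p 6.8e-04). In polysomal RNA 2 genes of the adhesion list were higher and 3 lower (7.66% and 5.87% over all genes). With the replicate block 7 were higher and 6 lower, but here too the block raised the count over all genes, and those shares are from the fit without it. Without replicate 3 the total mRNA count of called genes in the adhesion list fell from 13 to 8, and the count over all genes fell too. In polysomal RNA leaving out replicate 1 left 5 called genes of the ITAM list (also 5 without clone 29), 3 adaptors (4 without clone 13, 35 or 36) and 2 adhesion genes (3 without clone 13 or 35, 9 without replicate 3). The polysomal count over all genes also shifted in such fits, so these counts are not read as a trait of the lists.

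The genes next to the 5 loci were examined for a shared difference. Within 200 kb 26 tested genes were found, of which 6 were higher and 3 lower in total mRNA, with a median log2 fold change of 0.13 against 0.0035 over all genes. Over all genes 14.5% were higher and 15.8% lower, so these counts are near the background. Cytip had no tested neighbour in that distance. Zfp518b, 21.6 kb from Clnk, was the neighbour with the largest difference, with 402 ± 118 in R98S against 145 ± 36.6 (log2 fold change 1.46, SE 0.19, limma adjusted p 2.5e-05), and it was also higher in polysomal RNA (adjusted p 0.0180). Left of Cd247, the nearest gene Creg1 did not pass (limma adjusted p 0.471), Rcsd1 was higher (0.54, adjusted p 0.0011, and 0.0065 in polysomal RNA) and Mpzl1 was lower (-0.30, adjusted p 0.0617), while no tested gene lay on its right within 200 kb. On either side of Ptprcap, the nearest genes that do not overlap it, Cabp4 (adjusted p 0.472) and Carns1 (0.407), did not pass, and farther out Tbc1d10c was higher (0.62, adjusted p 0.0072, and 0.0034 in polysomal RNA). Tm9sf2 beside Gpr183 did not pass (0.421).

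**Figure D4:**
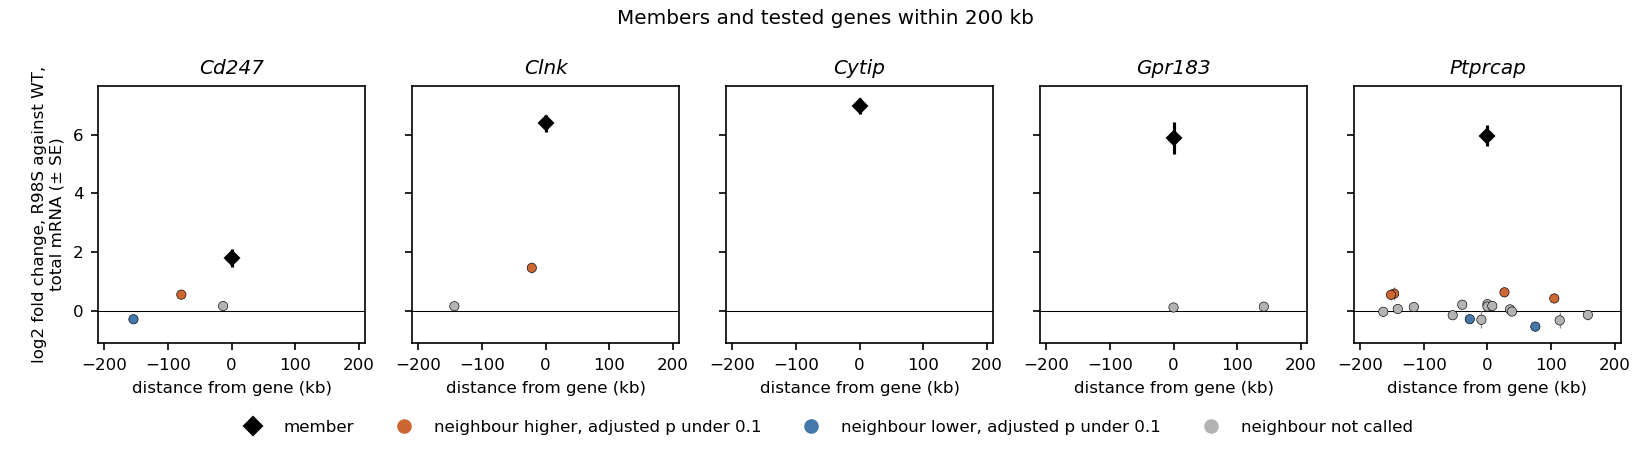
Log2 fold change of R98S against WT in total mRNA with its SE, plotted against distance from the gene in kb, for each of the 5 genes (diamond) and the tested genes within 200 kb (circles, coloured by call). The neighbours lie between -0.55 and 1.46 and the Cytip panel holds none, and the heights of the Clnk and Cytip diamonds depend on the constant added before the log.

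Markers of hematopoietic cell types were read in the same libraries, because the 5 genes were chosen for a part in lymphocyte signalling or adhesion. The part of cell type in the differences was not tested. Of 12 B-lineage markers only Cd79a and Cd79b had a mean of at least 10 in total mRNA, their list summed to 1125 to 1603 in R98S and 967 to 1159 in WT, and Pax5 was at 0 in every total mRNA library. Cd79b, a chain of the B-cell receptor, was higher with 415 ± 132 against 225 ± 75.4 (0.87, SE 0.21, limma adjusted p 0.0067), while the more abundant Cd79a with 943 ± 188 against 841 ± 69.5 did not pass (0.14, adjusted p 0.384). Of 13 T-cell markers only Cd3d reached a mean of 10 in R98S and Cd3d and Cd3g did in WT. Cd3d, a chain of the T-cell receptor complex, was higher in R98S with 57.1 ± 23.5 against 15.3 ± 6.14 (1.85, SE 0.30, limma adjusted p 2.2e-04) and in polysomal RNA (3.08, adjusted p 7.7e-04), whereas Cd3g was lower with 6.58 ± 12.3 against 57.1 ± 61.0 (-3.06, SE 0.78, adjusted p 0.0089). The T-cell sums ranged from 42.1 to 106 and from 16.5 to 222, and Cd8b1, Cd2 and Cd28 were at 0 in total mRNA of both genotypes. Of 8 natural killer markers Ncr1, Klrb1c, Klrd1, Prf1 and Gzma were at 0 in both genotypes, and the list summed to 23.4 to 92.0 in R98S and 32.9 to 159.8 in WT. In total mRNA Nkg7 was lower in R98S with 25.7 ± 24.3 against 74.3 ± 50.4 (-1.53, limma adjusted p 0.030) and Eomes higher with 15.8 ± 4.52 against 9.52 ± 5.14 (0.78, adjusted p 0.072). Of 10 mast cell and basophil markers 6 had a mean of at least 10 in either genotype, and their sums were 14645 to 81476 in R98S and 19109 to 38863 in WT, led by Cma1 in R98S and by Gata2 in WT. The protease Cpa3 was higher with 765 ± 696 against 94.5 ± 104 (3.20, SE 0.59, limma adjusted p 8.1e-04), as were Cma1 (2.42, adjusted p 0.051), Hdc (1.28, adjusted p 0.052) and Mcpt8 (2.99, adjusted p 0.077), while Gata2 with 19416 ± 3270 against 22530 ± 4182 (-0.21, adjusted p 0.226) and Ms4a2 (0.48, adjusted p 0.561) did not pass. In R98S total mRNA Cma1 ranged from 303 to 56111 and Mcpt8 from 0 to 1238. In polysomal RNA Cpa3 (limma adjusted p 0.0020) and Hdc (0.060) were called higher and Mcpt8 did not pass (0.437). Cma1 did not pass there without the replicate block (0.111) but did with it (0.066). In total mRNA Kit averaged 0.21 in R98S and 0 in WT, Fcer1a 0.60 and 2.00, and Prss34 0.30 and 0.21. Of 9 myeloid markers 1 reached that mean in R98S and 4 in WT, with sums of 2.76 to 428 and 63.0 to 573, and lysozyme (Lyz2) was lower with 9.85 ± 17.6 against 50.6 ± 32.996 (-2.66, SE 0.73, limma adjusted p 0.013). Mpo with 46.4 ± 112 against 28.2 ± 69.0 (0.29, adjusted p 0.881) and Cd14 (-1.14, adjusted p 0.489) did not pass. Mouse Rpl10, the target of the shRNA in all clones, had 1479 ± 651 in R98S and 1816 ± 1614 in WT total mRNA (limma adjusted p 0.885) and 1243 ± 564 and 2977 ± 1617 on polysomes (limma -1.20 on the log2 scale, adjusted p 0.0490), a count that can include reads of the human cDNA.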

How the data were processed

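Total mRNA (17 libraries) and polysomal RNA (14 libraries) were read from 2 tables of the Ba/F3 clones. Per the methods of the study, reads from a stranded poly(A) kit were cleared of rRNA and tRNA with Bowtie2 and aligned to mm10 with TopHat 2.0.11. Primary alignments of sufficient mapping quality were kept, and exonic reads were summed by gene (HTSeq is listed in the submitters' processing notes). In the deposited tables each signal value is a read count that the authors scaled by a DESeq2 size factor, separately for each table. Reads were recovered as whole numbers from the step of each library. Levels and ratios set across the 2 tables are relative to the average gene of each.

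Values were taken as log2(value + 1), genes averaging under 10 were dropped, and the genotypes were compared by limma 3.58.1 (R 4.3.3) with a variance trend. Differences between clones and replicate numbers within R98S or WT were tested by F-tests in the same tool. P values were adjusted over all genes tested (Benjamini-Hochberg), and genes under 0.1 are called. All tests were two-sided. The study used DESeq2 for genotypes; edgeR 4.0.16 and DESeq2 1.42.0 on the recovered reads were alternatives, beside other constants, filters, a replicate block and the removal of replicates, clones or libraries. The models were tested on simulated data, and no result of those tests is used here.

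The 5 genes, lists and tests were chosen with earlier results of these data known. Besides the 5 genes, the text names their direct partners, the 3 genes of each list with the smallest adjusted p in total mRNA, the 3 genes most like each member, overlapping genes and the nearest tested genes. A few genes that this rule names are not reported here, though the counts include them. Same-numbered R98S and WT libraries deviated from their group means together over genes (r = 0.62, 0.55 and 0.48 in total mRNA and 0.70, 0.67 and 0.87 in polysomal RNA for numbers 1, 2 and 3), so the numbers pair the libraries.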

Additional observations from a re-analysis of the deposited data

Results flagged for a closer look

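Of 18 groups of 6 to 9 libraries in which a member was read, 4 held a library far from the rest, 3 of them for Gpr183. By chance about 1 in 20 groups is marked. Gpr183 in R98S total mRNA had 1506 in clone 11 number 2, while the other R98S libraries had 194 to 845. In WT total mRNA Gpr183 had 48.0 in clone 28 number 2 against 0.943 to 9.26 in the others, and in WT polysomal RNA the same culture had 13.3 against 1.32 to 4.62, so these marks share 1 culture. Cytip in WT polysomal RNA had 0.666 in clone 28 number 2 and 0 in the others, where a single read is marked by construction.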

How the results depend on the processing

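For all 5 genes every R98S library lay above every WT library, and this contrast chose them, so the direction was set beforehand. Nothing is therefore read from the fact that their genotype fold changes kept their direction under all alternatives run in both fractions. The fold changes of Clnk and Cytip moved with the constant added and with the count tools, those of Ptprcap and, in polysomal RNA, Gpr183 with a constant of 5, and both of these in polysomal RNA without replicate 3. Over all alternatives the log2 fold change of Cd247 ran from 1.49 to 2.16 in total and 2.47 to 3.95 in polysomal RNA. That of Gpr183 ran from 5.12 to 6.43 and from 4.54 to 5.85, and that of Ptprcap from 5.13 to 6.30 and from 6.09 to 8.74. Between genotypes the called genes numbered 3369 in total mRNA (4277 with the replicate block, 1322 to 2995 when a replicate or clone was left out, lowest without replicate 3), 1449 in polysomal RNA (3307 with the block, 599 to 2063) and 5 for the ratio (46 with the block, 1 with a constant of 5, a mean of at least 50 or edgeR, 3 with no filter, 0 to 84 when a replicate or clone was left out). Beyond the values given in the report, the replicate block changed no call of the 5 genes between clones, and their calls between genotypes are not used. Between R98S clones 816 were called in total mRNA (154 with no replicate block, 141 to 1251 without a library) and 242 in polysomal RNA (3 with no replicate block, 387 with no filter, 13 to 587 without a library). Between replicate numbers 1066 were called in total mRNA (110 with clone left out of the model, where Cytip had 0.239 and Gpr183 0.501 as adjusted p in limma, 17 to 1945 without a library), 6198 in polysomal RNA (4842 to 5727 without a library) and 5553 for the ratio (2550 with no filter, 3556 to 5249 without a library). Between WT clones 6 were called (22 by edgeR, 2 to 601 without a library). The cause of these shifts was not tested. DESeq2 was not run for the ratio. With a member at 0 to 3 reads in WT, depth limits any WT level.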
